A study of Mus musculus with 99 samples.

Results

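Cation-chloride cotransporters are membrane proteins of the Slc12a gene family that move chloride together with sodium, potassium or both. The 4 examined here were Slc12a2, Slc12a4, Slc12a5 and Slc12a7, chosen as named genes and found by their Ensembl identifiers through mouse GENCODE symbols in every table, 4 of 55335 genes. The tables came from bulk RNA sequencing of tissue punches from 5 brain regions of juvenile offspring: 2 cortical areas, primary somatosensory (S1) and prelimbic (PrL), the nucleus accumbens of the striatum (NAc), the ventrobasal nuclei of the thalamus (VBT) and, in the midbrain, the ventral tegmental area (VTA). All offspring were Wildtype C57BL/6 mice. Dams of the Fentanyl groups received the synthetic opioid fentanyl in their drinking water at 10 µg/ml, starting at embryonic day 0 and ending at weaning, and dams of the Water groups received water; the series asks about sex-specific effects in reward and sensory areas. Each region had Female and Male groups of each treatment, 20 groups in all. Of 99 libraries 98 were used, 5 per group in 18 groups, 4 in the S1 male Water group, which has 4 libraries here, and 4 in the VTA male Water group. In the latter, 1 library with 6333 detected genes was left out, under a minimum of 10000 set with the choice of genes. The labels do not tie libraries to litters or animals, and a dam's exposure reaches all of a litter, so the p-values below measure only the spread between these libraries.

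Neurons and glia set their internal chloride with these transporters. Slc12a2 encodes NKCC1, which carries sodium, potassium and chloride into the cell and is also made by oligodendrocytes and the choroid plexus. Slc12a5 encodes KCC2, the neuron-specific potassium-chloride exporter that keeps chloride low, so that opening of GABA-A receptors inhibits the mature neuron. In development the balance shifts from NKCC1 towards KCC2, and the ratio of the 2 transcripts is a common index of that shift. Slc12a4 and Slc12a7 encode KCC1 and KCC4, potassium-chloride exporters found in many tissues that take part in cell volume control. WNK kinases act through the kinases SPAK (Stk39) and OSR1 (Oxsr1) to activate NKCC1 and to inhibit the potassium-chloride exporters.

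The 98 libraries held 23032078 to 52069639 counts on genes, with a median of 36024982, and 24079 or more genes were detected in each. All 4 genes passed the filter on low counts in every region. Markers of the VTA and VBT were highest in the libraries labelled so: the summed level of 6 dopamine neuron and midbrain genes was 335 to 1733 CPM (the count scaled to a library total of 1000000) in the VTA and at most 69.3 CPM in any other library, and 6 thalamic genes summed to 1420 to 4325 CPM in the VBT and at most 717 CPM elsewhere. Striatal markers, 6 genes, summed to 1096 to 3798 CPM in the NAc and at most 714 CPM elsewhere. NAc libraries also held 53.7 to 1373 CPM of 5 cortical genes, against 1245 to 1753 CPM in S1 and 1369 to 2191 CPM in PrL, and in NAc female Water replicate 1 the cortical sum (1373 CPM) was above the striatal one (1096 CPM). In NAc females the median log2 difference, fentanyl minus water, was -1.001 over the cortical genes and 0.60 over the striatal ones, with 0 of 5 and 0 of 6 called. Their part in the NAc values was not tested. In such bulk tissue, fewer cells of a type and less RNA per cell cannot be told apart.

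Slc12a5 was the most abundant of the 4 transcripts in every region and varied least between regions. The gene (ENSMUSG00000017740) lies at chr2:164960802-164999731 on the plus strand of GRCm38 and has 7447 bases of annotated exon. Per kb of exon, its mean level in the Water libraries was 89.1 CPM in the VTA, 86.0 CPM in S1, 82.3 CPM in PrL, 71.7 CPM in NAc and 64.2 CPM in VBT. In CPM this corresponded to 663 ± 59.4 in the VTA (SD, n = 9), 640 ± 55.1 in S1 (n = 9), 613 ± 56.2 in PrL (n = 10), 534 ± 41.5 in NAc (n = 10) and 478 ± 88.5 in VBT (n = 10). VTA, S1 and PrL libraries thus held the higher levels, although single libraries of all 5 regions overlapped. In edgeR's quasi-likelihood test, on libraries scaled by the TMM method, the log2 difference was -0.03 for VTA minus S1 (adjusted p = 0.740), 0.06 for S1 minus PrL (adjusted p = 0.637) and 0.30 for PrL minus NAc (adjusted p = 0.00191). VBT and NAc did not differ beyond their spread, with a log2 difference of -0.02 (95% confidence interval -0.18 to 0.14).

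The counts merge transcripts from different first exons, and the sequence before each start that RefSeq annotates is shown because Slc12a5 and, further on, Slc12a4 are the members called between treatments. The tables for GRCm38.p6 hold start windows (250 bases before a start) for 3 of the 4 genes. Bases that fall in an annotated exon were removed, and capitals mark a GC box (GGGCGG or its complement) or an E-box (CACGTG).
Slc12a5 first start, chr2:164960596-164960801, plus strand: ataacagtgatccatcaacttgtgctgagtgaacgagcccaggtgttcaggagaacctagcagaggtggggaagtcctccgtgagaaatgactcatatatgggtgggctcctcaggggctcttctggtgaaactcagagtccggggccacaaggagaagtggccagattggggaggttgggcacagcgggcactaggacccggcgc
Slc12a5 second start, chr2:164967738-164967982, plus strand: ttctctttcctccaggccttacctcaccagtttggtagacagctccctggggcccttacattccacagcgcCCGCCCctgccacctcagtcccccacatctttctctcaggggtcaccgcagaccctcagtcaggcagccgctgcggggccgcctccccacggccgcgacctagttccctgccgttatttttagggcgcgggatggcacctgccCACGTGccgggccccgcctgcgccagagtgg
Slc12a4, chr8:105966116-105966365, minus strand: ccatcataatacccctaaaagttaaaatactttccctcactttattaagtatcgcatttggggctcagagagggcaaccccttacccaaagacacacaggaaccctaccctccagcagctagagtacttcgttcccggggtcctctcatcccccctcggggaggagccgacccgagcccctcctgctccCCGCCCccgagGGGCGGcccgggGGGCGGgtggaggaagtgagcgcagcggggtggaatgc
The 250-base windows of Slc12a5 were 61.2% and 67.2% G and C and that of Slc12a4 60.8%, against a median of 52.4% over 32851 annotated windows. The first Slc12a5 window held none of the motifs searched, the second held 1 E-box and 1 GC box, and the Slc12a4 window held 3 GC boxes. Over all windows and both strands, 32.7% held a GC box, 6.02% held CACGTG and 0.536% held the EGR motif GCGTGGGCG, which none of the 3 windows held. A match describes the letters only.

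Slc12a2 showed the widest range between regions. It lies at chr18:57878678-57946821 on the plus strand (ENSMUSG00000024597, 10920 exon bases). Its mean level in Water libraries was 29.9 CPM per kb in VBT and 26.5 in the VTA, but 11.4 in NAc, 9.83 in S1 and 6.13 in PrL. In CPM these levels were 327 ± 100 in VBT (SD, n = 10), 289 ± 57.4 in the VTA (n = 9), 124 ± 17.8 in NAc (n = 10), 107 ± 14.4 in S1 (n = 9) and 66.9 ± 14.7 in PrL (n = 10). Every VTA and VBT Water library, at 225 CPM or more, lay above every Water library of the other 3 regions, at 156 CPM or less. The log2 difference was 2.33 for VBT minus PrL (edgeR adjusted p = 1.11e-19), 1.20 for VTA minus NAc and -0.81 for PrL minus NAc. S1 and NAc did not differ beyond their spread (log2 difference -0.15, 95% confidence interval -0.41 to 0.11). The small difference of VTA minus VBT, -0.31 (adjusted p = 0.0356), lost its call (adjusted p 0.0502 to 0.128) when VTA female Water replicate 2, 3 or 4, VTA male Water replicate 4 or 5, VBT female Water replicate 1 or 2 or VBT male Water replicate 3 was left out.

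Slc12a4, at a lower level, was like Slc12a2 higher on average in the VTA and VBT than in S1, NAc and PrL, but it ranked S1 above NAc. It lies at chr8:105943590-105966097 on the minus strand (ENSMUSG00000017765, 4279 exon bases), and 361 of its exon bases overlap the antisense gene Gm16156, whose mean level was 0.056 CPM. Slc12a4 averaged 7.28 CPM per kb in VBT, 6.84 in the VTA, 4.85 in S1, 3.87 in NAc and 3.61 in PrL. In CPM this was 31.1 ± 7.91 in VBT (SD, n = 10), 29.3 ± 3.81 in the VTA (n = 9), 20.7 ± 1.75 in S1 (n = 9), 16.5 ± 1.75 in NAc (n = 10) and 15.5 ± 2.40 in PrL (n = 10). VBT exceeded PrL by 1.05 and S1 exceeded NAc by 0.40 on the log2 scale, while PrL minus NAc was -0.01 (edgeR adjusted p = 0.936). The VTA minus VBT difference of -0.21 (adjusted p = 0.0428) lost its call when VTA female Water replicate 1, 2 or 3, VTA male Water replicate 1, 2 or 5, VBT female Water replicate 2 or VBT male Water replicate 1, 2 or 4 was left out, and without VBT female Water replicate 2 it was -0.12 (adjusted p = 0.184).

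Slc12a7 was the least abundant member. It lies at chr13:73733094-73816754 on the plus strand (ENSMUSG00000017756, 12669 exon bases) and averaged 0.769 CPM per kb in the VTA, 0.439 in VBT, 0.425 in NAc, 0.413 in S1 and 0.382 in PrL. In CPM these were 9.74 ± 2.72 in the VTA (SD, n = 9), 5.56 ± 2.92 in VBT (n = 10), 5.38 ± 1.17 in NAc (n = 10), 5.24 ± 1.47 in S1 (n = 9) and 4.84 ± 2.99 in PrL (n = 10). The VTA exceeded each other region by 0.68 to 0.94 on the log2 scale (edgeR adjusted p 0.000906 to 0.0178). The other 6 pairs were not called, with log2 differences from -0.09 to 0.26, although VBT minus PrL was 0.52 (adjusted p = 0.0353) when PrL female Water replicate 4, the highest PrL library at 12.7 CPM, was left out. Over the 4 genes and 10 pairs of regions, 28 of 40 comparisons were called: 9 for Slc12a2, 9 for Slc12a4, 6 for Slc12a5 and 4 for Slc12a7. Over all genes tested, 59.6% of such comparisons were called. By pair, the share of genes called was 37.3% for S1 minus PrL, 50.3% for PrL minus NAc, 52.5% for VTA minus VBT, 53.3% for S1 minus NAc, 64.8% for VTA minus NAc, 66.5% for VTA minus PrL, 67.6% for VTA minus S1, 67.8% for VBT minus NAc, 68.0% for VBT minus S1 and 68.4% for VBT minus PrL. The 4 members were thus called about as often as genes in general.

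**Figure D1:**
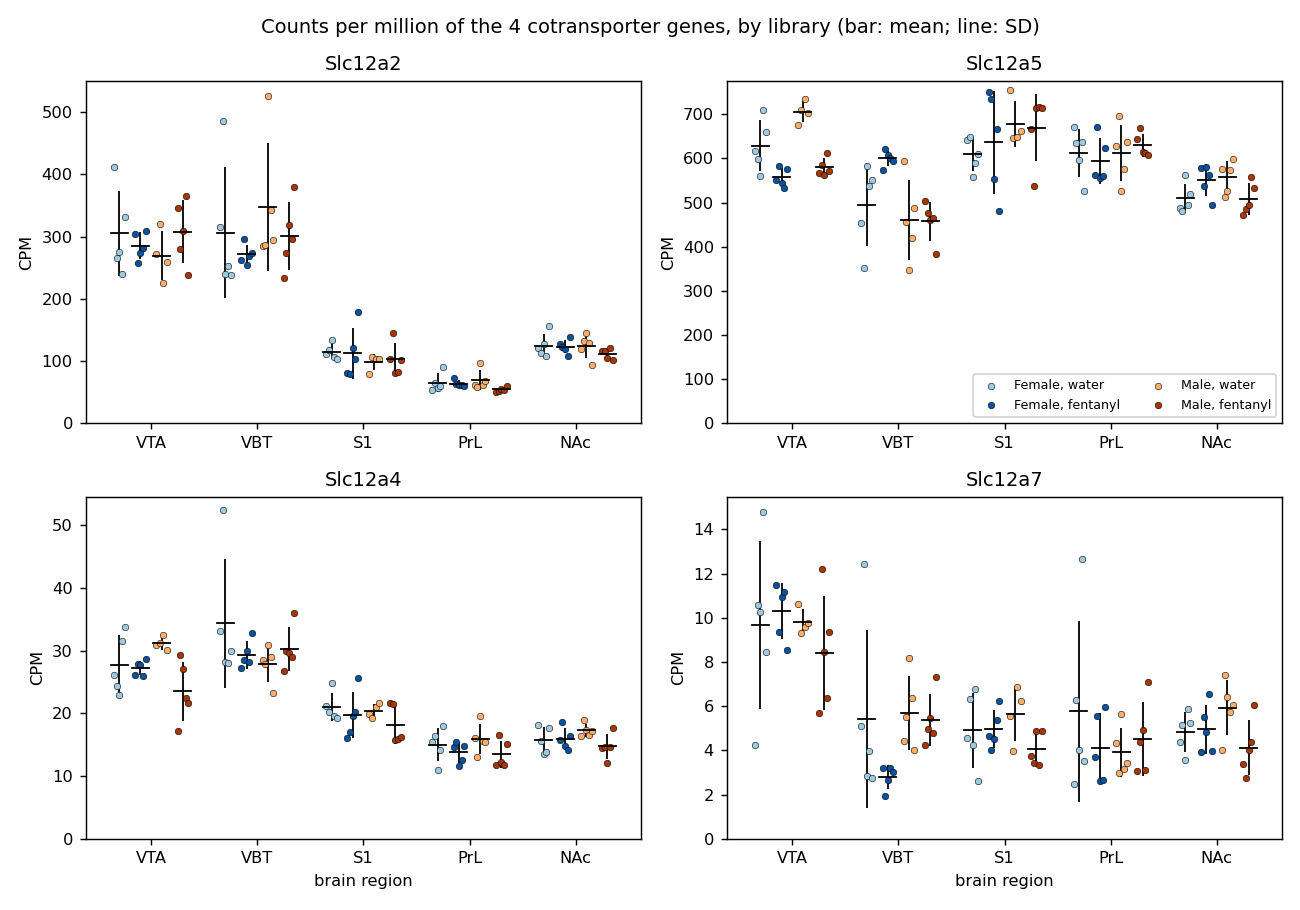
CPM (y axis) of Slc12a2, Slc12a4, Slc12a5 and Slc12a7 in each of the 98 libraries by region, sex and treatment; each point is a library, bars are group means and vertical lines are 1 SD. Slc12a2 stands at 225 CPM or more in every VTA and VBT Water library and at 156 CPM or less in the Water libraries of the other regions, while the Slc12a5 ranges of the 5 regions, over all their libraries, overlap.

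The ratio of Slc12a5 to Slc12a2 counts ordered the regions from PrL down to VBT. In Water libraries the ratio was 9.60 ± 2.33 in PrL (SD, n = 10), 6.12 ± 1.42 in S1 (n = 9), 4.39 ± 0.837 in NAc (n = 10), 2.38 ± 0.541 in the VTA (n = 9) and 1.63 ± 0.625 in VBT (n = 10). Corrected for exon length, the ratio was 14.1 in PrL, 8.98 in S1, 6.44 in NAc, 3.49 in the VTA and 2.38 in VBT. Neither the VTA nor the VBT libraries overlapped those of S1, PrL or NAc. All 10 pairs of regions differed in a two-sided permutation test of the log2 ratio, exact where a region had under 10 libraries, with adjusted p from 4.33e-05 to 0.0136. The largest difference, VBT minus PrL, was -2.64 on the log2 scale (a 6.22-fold lower ratio), with the smallest p that 100000 resamples can give, 2e-05. The smallest was S1 minus NAc, 0.47, and neighbours in the order overlapped in all but the NAc and VTA pair. The median summed level of 6 oligodendrocyte markers in Water libraries ran in the opposite order. It was 1091 CPM in PrL, 3626 in S1, 7395 in NAc, 21069 in the VTA and 23802 in VBT. The ratio in bulk tissue is therefore not a measure of neurons alone, and the part of these markers in its order was not tested.

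**Figure D2:**
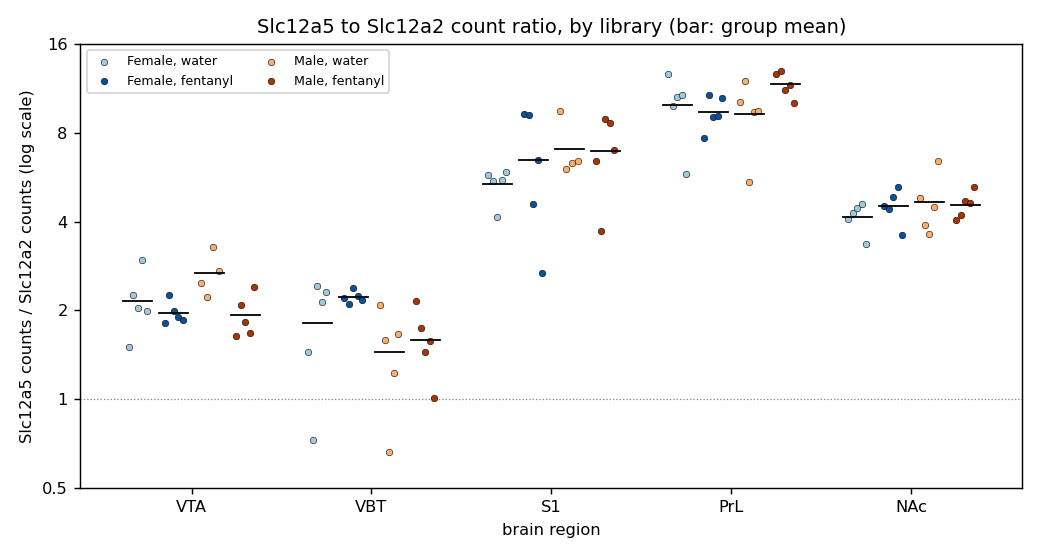
Ratio of Slc12a5 to Slc12a2 counts (y axis, log scale) in each library by region, sex and treatment; points are libraries and bars are group means. Water means run from 9.60 in PrL to 1.63 in VBT, and the Fentanyl and Water libraries of each sex overlap in every region.

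Markers of oligodendrocytes, the myelin-forming cells, moved with Slc12a2 within each region. All 6 markers, Mbp and Mog among them, were detected, and their summed level ranged over 721 to 2955 CPM in PrL, 2337 to 13679 in S1, 6028 to 9757 in NAc, 14999 to 31116 in the VTA and 17205 to 45833 in VBT. Across the libraries of a region, Pearson's r between this sum and Slc12a2 CPM was 0.952 in VBT, 0.910 in S1, 0.789 in PrL, 0.742 in the VTA and 0.702 in NAc. Spearman's rho was 0.938, 0.811, 0.716, 0.746 and 0.669 in the same order, and adjusted permutation p-values for r were 3.33e-05, 3.33e-05, 0.0003, 0.000711 and 0.00098 over the 20 relations computed. Those for rho were 0.0001, 0.000267, 0.00157, 0.0013 and 0.00294. Without the 2 libraries farthest from the median sum, r was 0.916, 0.806, 0.697, 0.701 and 0.560. High Slc12a2 libraries were thus the libraries rich in myelin transcripts in all 5 regions, including the highest of all, VBT male Water replicate 3, with 526 CPM of Slc12a2 and the largest marker sum. That library also had the lowest thalamic sum of the VBT, 1420 CPM, and 714 CPM of striatal markers. VBT female Water replicate 2, at 486 CPM of Slc12a2, held 2239 CPM of thalamic, 496 CPM of striatal and 4569 CPM of choroid plexus markers. The part of such other tissue in the VBT relations was not tested.

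Slc12a5 ran the other way in 2 regions. Pearson's r between Slc12a2 and Slc12a5 CPM was -0.934 in S1 (rho -0.912) and -0.836 in VBT (rho -0.674), with adjusted permutation p of 3.33e-05 for both r values and 0.0001 and 0.00291 for rho. It stayed at -0.872 and -0.692 without the 2 farthest libraries. In PrL r was -0.696 (adjusted permutation p = 0.00102) but rho was -0.475 (adjusted p = 0.0601) and r was -0.400 without the 2 farthest libraries, so the relation rests on them. NAc showed no relation past the threshold (r = -0.0665, rho = 0.0496, adjusted permutation p = 0.781 and 0.837). The marker sum itself correlated with Slc12a5 at r = -0.877 in S1 (rho -0.788) and -0.843 in VBT (rho -0.695), with adjusted permutation p of 3.33e-05 for both r values and 0.0005 and 0.00212 for rho. Without the 2 farthest libraries these were -0.756 and -0.753. In PrL the marker sum and Slc12a5 gave r = -0.547 (adjusted permutation p = 0.0209) but rho was -0.433 (adjusted p = 0.0837), and r was -0.331 without the 2 farthest libraries. In NAc r was -0.143 and rho -0.177 (adjusted permutation p = 0.604 and 0.502). CPM is a share of a library's counts, so the levels of different genes in a library are not independent of each other. No pooled coefficient with Slc12a5 is given for the VTA, whose Slc12a5 values formed 2 separate sets, described below.

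**Figure D3:**
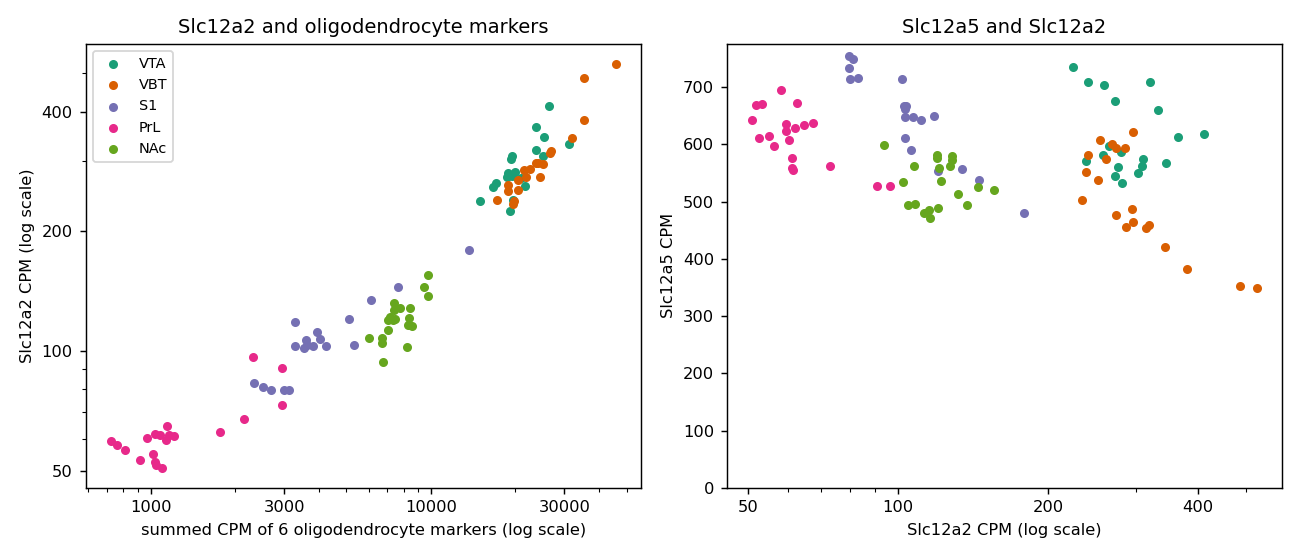
Left, Slc12a2 CPM (log scale) against the summed CPM of 6 oligodendrocyte markers (log scale); right, Slc12a5 CPM against Slc12a2 CPM (log scale); each point is 1 of 98 libraries, coloured by region. Slc12a2 increases with the marker sum within each region, and Slc12a5 declines with Slc12a2 in S1 and VBT.

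The genes whose levels were most like each member's also separated the members. Over the 48 Water libraries of all regions, among 16012 protein-coding genes, Slc12a2 correlated best with Elovl7 (r = 0.992), Slc44a1 (0.990), a choline transporter, and Rnf13 (0.989). Slc12a4 correlated best with Kif1c (0.934), a kinesin motor, the anion exchanger Slc4a2 (0.932) and Tln1 (0.930), which encodes the adhesion protein talin. For Slc12a5 the best were Tub (0.830), Tmem59l (0.821) and Prrg3 (0.799), and for Slc12a7 they were S100a11 (0.871), Mxra8 (0.859) and Fzd7 (0.854), a Wnt receptor. These values describe differences between regions, which all genes of a region share. After the group means were removed, over 98 libraries, the best were Elovl7 (0.937), Slc44a1 (0.929) and the RNA-binding gene Qk (0.924) for Slc12a2. For Slc12a4 they were Tln1 (0.770), Inppl1 (0.768) and Sorbs3 (0.764). For Slc12a5 they were Grin1 (0.817), which encodes the obligatory NMDA receptor subunit, Mfn2 (0.803), which acts in mitochondrial fusion, and Ncdn (0.800). For Slc12a7 they were Fzd7 (0.791), Aebp1 (0.779) and Pcolce (0.774), a collagen-processing gene. Among the members, Slc12a2 correlated with Slc12a4 at 0.868 over Water libraries and 0.546 after removal of group means.

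Between treatments, 2 of the 4 genes were called lower in VTA males of the Fentanyl group, Slc12a5 and Slc12a4, and none was called in any other region or in females. Background was high in that comparison: 22.0% of the 19822 genes tested in VTA males were called in either direction (11.0% lower), so 2 of 4 members is a small count against a large share. In VTA females no gene at all was called (0.0%, with 2518 genes at an unadjusted p under 0.05), and up to 139 genes were called by other fits.

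In VTA males Slc12a5 was at 567, 586, 562, 613 and 572 CPM in the Fentanyl libraries and at 676, 709, 735 and 704 CPM in the Water libraries. All Fentanyl libraries lay below all Water libraries, which was also true, in one direction or the other, of 20.1% of 22326 genes there. Slc12a5 fell by 0.24 on the log2 scale (95% confidence interval -0.38 to -0.11, edgeR adjusted p = 0.0129). In females it was at 550, 582, 545, 533 and 575 CPM with fentanyl and 618, 598, 560, 710 and 660 CPM with water. The female groups overlapped at the lowest Water library, and the log2 difference of -0.19 (95% confidence interval -0.32 to -0.06) was not called (adjusted p = 0.286). The average over both sexes was -0.22 ± 0.05 (SE, adjusted p = 0.00273, where 23.1% of genes were called). The sex difference of the effect was -0.05 (95% confidence interval -0.24 to 0.14, adjusted p = 0.836), so the male call does not set the sexes apart.

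Slc12a4 was at 17.1, 29.3, 27.0, 22.4 and 21.6 CPM in the VTA male Fentanyl libraries and at 30.9, 31.2, 32.4 and 30.1 CPM in the Water libraries. The groups did not overlap, but the Fentanyl libraries spread widely, the highest lying just under the lowest Water library. Slc12a4 fell by 0.37 (95% confidence interval -0.63 to -0.12, edgeR adjusted p = 0.0335). This call was lost (adjusted p 0.0538 to 0.0923) when male Fentanyl replicate 1 or 5 or any 1 of the 4 male Water libraries was left out. In females the groups overlapped, at 26.0 to 28.6 CPM with fentanyl and 23.0 to 33.8 CPM with water (log2 difference -0.04, adjusted p = 0.904). The sex difference was -0.33 (adjusted p = 0.454), and the average over the sexes was -0.21 (adjusted p = 0.0784).

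The remaining members did not separate the VTA groups. Slc12a2 was at 239 to 365 CPM in male Fentanyl and 225 to 320 CPM in male Water libraries, with a log2 difference of 0.23 (95% confidence interval -0.11 to 0.58). In females the Slc12a2 difference was -0.12 (adjusted p = 0.771). Slc12a7 gave -0.19 in males (adjusted p = 0.609) and 0.08 in females (adjusted p = 0.907).

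The VTA libraries stood in 2 sets by their trend with GC content, and both called genes moved with it. The trend is the rank correlation (rho) across genes between exon GC content and a library's deviation from the region's mean. It was 0.400 to 0.518 in 6 libraries, the 4 male Water and 2 of the female Water libraries, and -0.414 to -0.00506 in the other 13. Slc12a5 and Slc12a4 exons are GC-rich, at 57.9% and 57.4%, and those of Slc12a2 are 42.3% G and C. In the 6 libraries Slc12a5 was at 660 to 735 CPM and Slc12a4 at 30.1 to 33.8 CPM. In the 13 others they were at 533 to 618 CPM and 17.1 to 29.3 CPM, with no overlap for either gene. Among the females of the second set, Slc12a5 was at 560 to 618 CPM in 3 Water libraries and 533 to 582 CPM in 5 Fentanyl libraries, and Slc12a4 was at 23.0 to 26.1 and 26.0 to 28.6 CPM. All male Water libraries were in the first set and all male Fentanyl libraries in the second, so the trend and the treatment cannot be told apart in males.

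**Figure D4:**
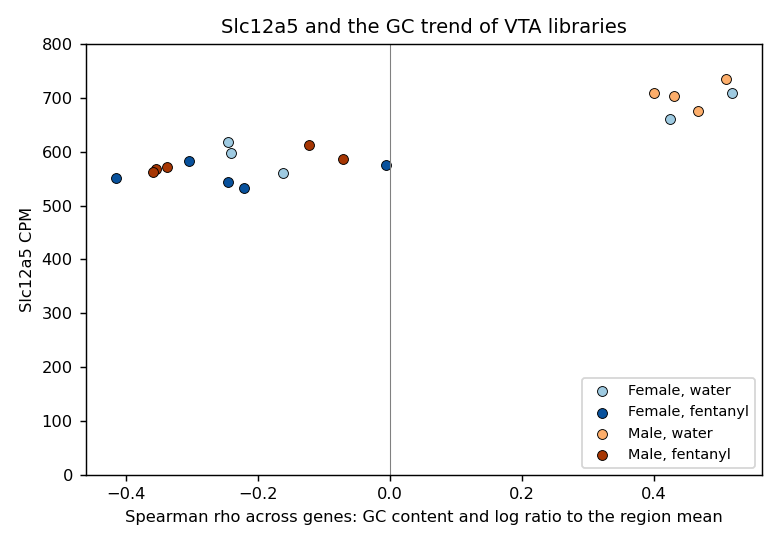
Slc12a5 CPM (y axis) of the 19 VTA libraries against each library's rank correlation (rho) across genes between exon GC content and its deviation from the region's mean (x axis), by sex and treatment. The 6 libraries at 0.400 or more are all Water libraries with 660 to 735 CPM, and the 13 below 0 hold 533 to 618 CPM.

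With an offset for this GC trend, the Slc12a5 difference in VTA males was 0.08 (edgeR adjusted p = 0.582), that of Slc12a4 was -0.08 (adjusted p = 0.706), the average of Slc12a5 over the sexes was 0.0012 (adjusted p = 0.995), and genes called in VTA males numbered 537 instead of 4355. With the thin male Water library kept, Slc12a5 was at -0.00023 and Slc12a4 at -0.054 and neither was called, nor was the Slc12a5 average (-0.099), with 42 genes called in all in males. Cell type markers called between the VTA male groups included those of oligodendrocyte precursors, 2 of 5 called lower, summing to 356 to 426 CPM with fentanyl and 502 to 540 CPM with water, and of the choroid plexus, 2 of 6 called lower, at 14.0 to 26.6 CPM against 11.3 to 1045 CPM. Neuron markers, 0 of 6 called, summed to 5374 to 7252 CPM with fentanyl and 4968 to 5384 CPM with water, and mature oligodendrocyte markers, 0 of 6 called, to 14999 to 25307 and 19259 to 23761 CPM. Of the others, 1 of 5 endothelial markers was called lower, and 2 of 5 microglial, 1 of 5 pericyte and meningeal and 1 of 6 thalamic (VBT) markers were called higher. The median log2 differences of these lists were -0.05, -0.01, -0.11 and 0.02 in the same order, and 22.0% of all genes were called in this comparison. The 6 dopamine neuron and midbrain genes, 0 of 6 called, had a median log2 difference of -0.71 and summed to 335 to 1240 CPM with fentanyl and 864 to 1499 CPM with water. Averaged over the sexes, 23.1% of all genes were called. Of the markers, 4 of 5 for oligodendrocyte precursors (median log2 difference -0.36) and 2 of 6 for the choroid plexus were called lower. Called higher were 2 of 5 microglial, 1 of 5 pericyte and meningeal, 1 of 6 thalamic and 1 of 4 tested cortical markers. Their part in the results, the Slc12a5 average included, was not tested.

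**Figure D5:**
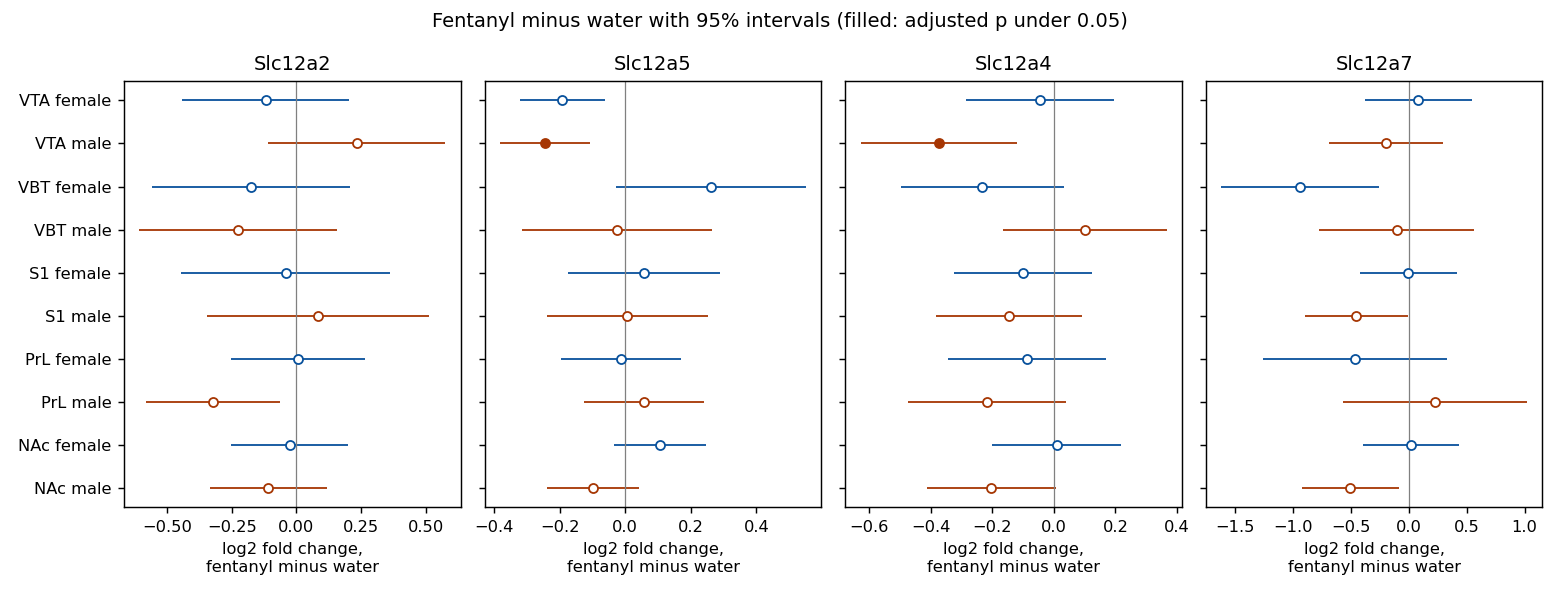
Log2 difference of Fentanyl minus Water (x axis) for the 4 genes in females and males of the 5 regions; points are edgeR estimates, lines are 95% confidence intervals, and filled points have an adjusted p under 0.05. Slc12a5 (-0.24) and Slc12a4 (-0.37) in VTA males are the filled points, and both lost their call with the GC offset.

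Outside the VTA, none of the 32 comparisons of a member in 1 sex was called, against 0.104% of all genes tested in those comparisons (0.142% in S1 females, 0.021% in PrL females, 0.662% in NAc males and 0.0% in the other 5), and 4 of the 32 had an unadjusted p under 0.05. DESeq2's Wald test called none of them either. The count of all genes called rested on single libraries: with 1 left out it was 0 to 813 in NAc males (129 with all), 0 to 220 in S1 females (28), 0 to 7 in PrL females (4), 0 to 30 in S1 males, 0 to 24 in VBT males and at most 2 in VBT females, PrL males and NAc females. Slc12a5 differed by -0.10 to 0.26 on the log2 scale in the 8 comparisons, with 95% confidence limits between -0.32 and 0.55. Slc12a2 differed by -0.32 to 0.08 (limits -0.61 and 0.51) and Slc12a4 by -0.23 to 0.10 (limits -0.50 and 0.37). Slc12a7, the least abundant, gave the widest estimates, -0.94 to 0.23, with limits of -1.62 and 1.02. These intervals bound the size of any change in Slc12a5, Slc12a2 and Slc12a4 more tightly than in Slc12a7.

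The 4 estimates with an unadjusted p under 0.05 were all lower with fentanyl. In PrL males Slc12a2 was at 50.9, 51.7, 55.1, 52.6 and 60.4 CPM with fentanyl and 61.9, 58.2, 96.5, 61.1 and 67.4 CPM with water, a log2 difference of -0.32 (edgeR adjusted p = 0.359). The groups overlapped at 1 library of each, and the Water library at 96.5 CPM, replicate 3, had an oligodendrocyte marker sum of 2319 CPM. It also held 69.3 CPM of the dopamine neuron and midbrain genes and the lowest cortical sum in PrL, 1369 CPM. Without that library the difference was -0.20, and with the share of reads outside exons as a covariate it was -0.17. In PrL this share largely followed treatment. It was 10.9% to 12.9% with fentanyl and 12.7% to 14.5% with water in males, and 9.99% to 11.8% and 12.1% to 14.1% in females. The 6 oligodendrocyte markers had a median log2 difference of -0.50 in PrL males, with 0 of 6 called. The part of these markers and of the midbrain genes in the value was not tested. In VBT females Slc12a7 was at 3.20, 1.94, 2.65, 3.19 and 3.03 CPM with fentanyl and 5.09, 12.4, 2.85, 3.96 and 2.75 CPM with water, a difference of -0.94 (adjusted p = 0.472). The Water library at 12.4 CPM held 4569 CPM of choroid plexus markers, and without it the difference was -0.41. Slc12a7 in S1 males (-0.45, adjusted p = 0.695) and in NAc males (-0.50, adjusted p = 0.189) were the others.

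The Slc12a5 to Slc12a2 ratio was not called between treatments in any of 15 comparisons. In VTA males it was 1.64, 2.09, 1.82, 1.68 and 2.39 with fentanyl and 2.48, 2.22, 3.27 and 2.71 with water, a log2 difference of -0.47 (exact permutation p = 0.0317, adjusted p = 0.245). The highest Fentanyl library exceeded the lowest Water library. In VTA females the difference was -0.10 (exact permutation p = 0.579). The average over sexes in the VTA was -0.29 (exact permutation p = 0.0327, adjusted p = 0.245), and with the GC offset it was 0.11. In the other regions the averages were 0.30 in VBT, 0.17 in PrL, 0.06 in NAc and 0.03 in S1. The largest differences there in 1 sex were 0.42 in VBT females (exact permutation p = 0.349, adjusted p = 0.748) and 0.37 in PrL males (exact permutation p = 0.0714, adjusted p = 0.357). The smallest p that 5 against 5 libraries allow is 0.00794, so a single comparison within 1 sex could not pass after adjustment over the 15. No difference between the sexes in the ratio's response was called (smallest adjusted permutation p = 0.479, for both the VTA, where the male response minus the female one was -0.37 on the log2 scale, and PrL, where it was 0.41).

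Sex itself separated none of the members. None of the 20 comparisons of males with females in Water libraries was called (smallest edgeR adjusted p = 0.449, 2 with an unadjusted p under 0.05, and none by DESeq2's Wald test), against 0.0587% of genes over the 5 regions (0.0472% in PrL, 0.0504% in the VTA, 0.0513% in NAc, 0.0557% in S1 and 0.0898% in VBT). Those 2 were Slc12a4 in VBT, at -0.30 for male minus female (95% confidence interval -0.57 to -0.03, adjusted p = 0.580), and Slc12a5 in the VTA, at 0.15 (0.01 to 0.29, adjusted p = 0.449). The male and female Water libraries overlapped for both. None of the 20 sex differences in the response to fentanyl was called (smallest adjusted p = 0.310, for Slc12a5 in NAc, at -0.20), and no gene was called for this contrast in any region (0.0%, with 494 to 2966 genes at an unadjusted p under 0.05).

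Of 27 other genes that regulate, bind or work beside these transporters, 11 were called in VTA males, 7 higher and 4 lower, against 22.0% of genes there. Their median difference was 0.12, and that of all genes was 0.00. With edgeR on all 98 libraries none of the 27 was called in another region or in VTA females. Among the 6 kinases only Wnk2 was called, at 73.2 to 98.4 CPM with fentanyl and 109 to 118 CPM with water, a log2 difference of -0.33 (edgeR adjusted p = 0.00744). The other 5 kinases had higher estimates, such as Stk39 at 0.30 (adjusted p = 0.126), and were not called. Of 7 genes listed for chloride and bicarbonate transport, among them the carbonic anhydrases Car2 and Car7, which are enzymes and were not called, the endosomal chloride-proton exchanger Clcn3 rose by 0.25 and the sodium-coupled bicarbonate transporters Slc4a8 and Slc4a10 rose by 0.23 and 0.26, while the anion exchanger Slc4a3 fell by 0.37. Of 5 sodium pump subunits, the beta subunits Atp1b1 and Atp1b2 rose by 0.29 and 0.24, and the 3 alpha subunits were not called. Of 9 genes that bind or regulate KCC2, Neto2, an auxiliary subunit of kainate receptors that also binds KCC2, rose by 0.52 (70.0 to 104 CPM against 53.7 to 63.8 CPM), and the calcineurin subunit Ppp3ca rose by 0.32. Creatine kinase Ckb and the repressor Rest fell by 0.37 and 0.27. Averaged over the sexes, 7 of the 27 were called in the VTA, against 23.1% of all genes, a share near the background: Clcn3, Neto2 and Atp1b2 higher, and Ckb, Slc4a3, Rest and Wnk2 lower.

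Most of these VTA calls shared the limits of the members'. With the GC offset the list had 3 calls over all regions, Atp1b2 (0.31, edgeR adjusted p = 0.033) and Rest (-0.35, adjusted p = 0.0161) in VTA males and Wnk2 (-0.33, adjusted p = 0.0452) in NAc males, and Wnk2 in VTA males was at 0.12; with the thin library kept there were none. In the other regions, the list gene with the lowest p was Wnk2 in NAc males (-0.37, adjusted p = 0.0583), at 77.5 to 107 CPM with fentanyl and 99.1 to 132 CPM with water. Wnk2 there was called by DESeq2's Wald test (adjusted p = 0.0122), with the GC offset and with reads outside exons as a covariate (edgeR adjusted p = 0.0472), over a range of 0.0122 to 0.102 among all alternatives. It was also called without male Fentanyl replicate 5, female Fentanyl replicate 5 or female Water replicate 2 or 3 (adjusted p 0.021 to 0.167 with single libraries left out). The list gene with the lowest p was Egr4, a transcription factor gene, in S1 females (0.73, adjusted p = 0.192), Slc4a10 in PrL females (0.18, adjusted p = 0.394) and Ppp1ca in VBT females (-2.20, adjusted p = 0.451), where 1 Water library was at 19.3 CPM and the other 9 libraries at 0.655 to 1.14 CPM.

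Of the rest of the Slc12a family, Slc12a9 was at 24.0 to 35.7 CPM in VTA male Fentanyl and 42.1 to 49.3 CPM in Water libraries and fell by 0.51 (edgeR adjusted p = 0.0033), which was -0.25 and not called with the GC offset (adjusted p = 0.0533). Averaged over the sexes, Slc12a9 fell by 0.34.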

How the data were processed

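Libraries were made with the SMART-Seq v4 kit from 10 ng of RNA extracted with Trizol and a column kit, per the labels' protocols. The authors deposited 1 table of unnormalized read counts for each library, with 55335 Ensembl genes and 5 lines of unassigned reads that were left out of totals. HTSeq and GRCm38 are named in the submitters' processing notes. The aligner, the strand setting and the annotation release are not given in the sources used here. Reads outside exons were 9.99% to 18.0% of reads. Symbols, positions and exon lengths came from GENCODE M21 (GRCm38), which held 55154 of the identifiers, and start windows from RefSeq (GRCm38.p6).

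CPM was computed on the total over genes; the ratio used counts. Fentanyl and Water groups were compared within each region by edgeR 4.0.16 (quasi-likelihood, TMM, its filter on low counts, R 4.3.3) over the 4 sex and treatment groups, and regions over 48 Water libraries. P-values were adjusted over all genes tested (Benjamini-Hochberg), with calls at an adjusted p under 0.05. Ratios were tested by two-sided permutation in scipy 1.17.1, adjusted over 15 treatment tests or 10 region pairs. The tests were tested on simulated counts. Alternatives were DESeq2 1.42.0 (size factors, Wald test), no low-count filter, a replicate block, offsets for exon GC content and length (a spline with 5 degrees of freedom), outside-exon reads as a covariate, each library left out, and the thin library kept. Confidence intervals cover 95%. Named were all 4 members and the family in every region, the list genes called in any fentanyl contrast or else the one with the lowest p per region, and the 3 genes most like each member by correlation of log2(CPM + 1). 1 gene of the family is not reported here. Members and lists were chosen with earlier results of these data known.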

Additional observations from a re-analysis of the deposited data

Results flagged for a closer look

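10 of 100 group values of a member or of the ratio had 1 library whose gap to its neighbours was large for a group of 4 or 5. Chance gives about 1 in 20 for independent values. These values were not independent, as the genes share libraries and the ratio is built from Slc12a5 and Slc12a2. An excess over chance cannot be read from the count. In VBT females on water, replicate 2 stood apart with 52.5 CPM of Slc12a4 and 12.4 CPM of Slc12a7, and it held 4569 CPM of choroid plexus markers. In VBT males on water, replicate 3 stood apart with 526 CPM of Slc12a2 and held 45833 CPM of oligodendrocyte markers. Its thalamic markers summed to 1420 CPM and its striatal markers to 714 CPM. In S1, replicate 3 of the female Water group had a Slc12a5 to Slc12a2 ratio of 4.15, replicate 2 of the male Fentanyl group had 538 CPM of Slc12a5, and replicate 1 of the male Water group had 79.7 CPM of Slc12a2, 755 CPM of Slc12a5 and a ratio of 9.47. The oligodendrocyte marker sums of these 3 S1 libraries were 6101, 7668 and 2699 CPM. In PrL, Slc12a2 stood at 72.9 CPM in female Fentanyl replicate 1 and at 96.5 CPM in male Water replicate 3, with marker sums of 2941 and 2319 CPM. Male Water replicate 3 also held 69.3 CPM of the dopamine neuron and midbrain genes. The part of these markers was not tested. The VTA male Water library left out of all tests (replicate 3) held 383 CPM of Slc12a2, above the 225 to 320 CPM of the other 4 libraries of its group.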

How the results depend on the processing

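Member calls between treatments numbered 2; there was 1 with a replicate block and there were 0 with the GC offset and 0 with the thin VTA male Water library kept, and 1 to 2 when single libraries were left out. With the block Slc12a4 in VTA males had an adjusted p of 0.0571, and in VTA minus VBT Slc12a2 (0.0592) and Slc12a4 (0.0569) lost their calls. Same-numbered Fentanyl and Water libraries deviated together with r from -0.52 to 0.60, so the numbers do not pair the libraries. For the list of 27 genes, 11 calls became 4 without the low-count filter, 3 with the GC offset and 0 with the thin library kept, and 4 to 13 with single libraries left out. Region calls of the members, 28, became 12 with the thin library kept (26 to 29 with single libraries left out). All 10 ratio differences between regions stayed called with single libraries left out, and 9 with the thin library kept. The averaged ratio difference was 0.11 in the VTA and -0.067 in S1 with the GC offset, and with single libraries left out it ranged from -0.35 to -0.22 in the VTA, -0.049 to 0.17 in S1, 0.15 to 0.38 in VBT, 0.08 to 0.22 in PrL and 0.02 to 0.12 in NAc.

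Directions turned with the GC offset for Slc12a4 in VTA females (0.074), Slc12a2 (-0.0013), Slc12a5 (0.077), Ckb (0.093) and Wnk2 (0.12) in VTA males, averaged Slc12a5 in the VTA (0.0012), and the ratio in VTA females (0.13), VTA males (0.086), S1 females (-0.064), PrL females (0.013) and NAc males (0.043). They turned with the thin library kept for Slc12a7 (0.12), Ppp3ca (-0.14) and Rest (0.055) in VTA males, and with the block for the ratio in S1 males (0.15). Slc12a5 in VTA minus PrL was -0.0155 with size factors, -0.0155 with the Wald test, -0.0076 without the filter, -0.0013 with the block and -0.13 with the thin library kept.

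With single libraries left out, estimates near 0 changed sign. In VTA females they were -0.20 to 0.024 for Slc12a2, -0.11 to 0.052 for Slc12a4 and -0.10 to 0.28 for Slc12a7. Between regions, Slc12a4 ranged over -0.041 to 0.035 in PrL minus NAc, and Slc12a5 over -0.072 to 0.041 in VBT minus NAc and -0.015 to 0.052 in VTA minus PrL. Slc12a7 ranged over -0.35 to 0.0085 in PrL minus NAc, -0.018 to 0.13 in S1 minus NAc, -0.089 to 0.25 in VBT minus NAc, -0.0014 to 0.52 in VBT minus PrL and -0.14 to 0.20 in VBT minus S1. The ratio ranged over -0.082 to 0.12 in NAc males, -0.22 to 0.060 in PrL females, -0.034 to 0.41 in S1 females, -0.17 to 0.15 in S1 males, -0.069 to 0.35 in VBT males, -0.22 to 0.025 in VTA females. The other 28 comparisons of members between treatments turned in 16 of 196 alternative fits and 45 of 553 fits without a library and were called in none. Genes called in VTA males ranged from 42 to 5527 over the alternatives. The cause of these changes was not tested, and no alternative could separate the GC trend from treatment in VTA males.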

Other observations

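Some other Slc12a genes had sharper regional patterns than the 4 examined. Slc12a8 averaged 13.4 ± 4.03 CPM in VBT Water libraries (SD, n = 10) and 0.721 to 0.953 CPM in the other regions, 3.86 to 4.19 higher on the log2 scale than in S1, PrL and NAc (edgeR adjusted p at most 7.14e-17), and VTA minus VBT was -4.35. Slc12a3, which encodes the thiazide-sensitive sodium-chloride cotransporter known from the kidney, averaged 2.78 ± 0.495 CPM in the VTA (n = 9) and 0.432 to 1.02 CPM elsewhere, a difference of 1.48 to 2.59. Slc12a1, which encodes the kidney cotransporter NKCC2, averaged 0.818 CPM in the VTA and 0.0314 to 0.185 CPM elsewhere, a difference of 1.95 to 4.56 at levels near the limit of these libraries. Slc12a9 averaged 27.2 to 42.0 CPM.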
